A study of Mus musculus with 18 samples.

Results

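The genes described here are 10 genes of T cells and natural killer (NK) cells: Cd3e, Cd3d, Cd3g, Cd4, Cd8a, Cd8b1, Gzma, Gzmb, Nkg7 and Klrd1. They were chosen by name, as the rows of the deposited gene tables whose Ensembl identifier carries one of these symbols, and they make up 10 of 30072 rows. They were followed in heart tissue of CD-1 mice, an outbred laboratory stock, that the labels describe as adult male and female littermates, 8 weeks old or more. By the study's methods the 6 control mice were sham-treated, with isoflurane anesthesia and computed tomography (CT) imaging but without the treatment dose. The other mice were anesthetized and imaged in the same way and received 25 Gy of ionizing radiation once. Of these, 6 were studied at 2 weeks and 6 at 6 weeks post-IR (after irradiation). The study's methods describe the controls as littermates matched in age and gender. The labels give no time after sham treatment for the controls, so that matching in time since treatment and in age at collection is not known. RNA came from the intraventricular septum by the labels, and the study's methods call the tissue ventricular. The sample is whole tissue with whatever blood and immune cells it held, so that fewer cells of a type and less RNA per cell cannot be told apart in these data. Nothing in the labels ties a replicate number to a litter, and each library is a separate mouse.

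T cells recognize fragments of protein held on major histocompatibility complex (MHC) molecules through a T cell receptor, whose antigen-binding chains pass their signal through the CD3 proteins encoded by Cd3e, Cd3d and Cd3g. The co-receptor CD4 binds MHC class II and marks helper and regulatory T cells, while CD8, built from the Cd8a and Cd8b1 products, binds MHC class I and marks cytotoxic T cells. Cytotoxic T cells and NK cells kill by releasing granules that hold the proteases granzyme A and granzyme B (Gzma, Gzmb), the granule membrane protein encoded by Nkg7 takes part in that release, and Klrd1 encodes CD94, which pairs with NKG2 receptors on NK cells. A resting heart holds few lymphocytes, most of its immune cells being macrophages.

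At 6 weeks post-IR 4 of the 6 genes with enough counts to test were higher than in control hearts (Gzma, Gzmb, Nkg7 and Cd8a), where 13.5% of all tested genes were, while Cd3e and Cd4 did not pass the test. At 2 weeks 1 of the 6 was higher, Gzmb, where 3.09% of all tested genes were. All 4 genes had enough counts to be tested only because of the 6-week mice, so that these counts describe the genes and support nothing about the set. The upstream sequences of the 4 genes are shown because these were the genes called higher at 6 weeks. They end at the annotated start of transcription in RefSeq (GRCm38.p6), run 5′ to 3′ on the strand of the gene and are written in lower case, with matches to 5 short motifs in capitals.
Gzmb: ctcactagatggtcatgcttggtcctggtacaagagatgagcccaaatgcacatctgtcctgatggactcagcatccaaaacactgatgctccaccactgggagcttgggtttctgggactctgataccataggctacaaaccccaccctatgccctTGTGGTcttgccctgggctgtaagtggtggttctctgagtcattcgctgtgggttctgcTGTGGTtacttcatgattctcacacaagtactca
Gzma: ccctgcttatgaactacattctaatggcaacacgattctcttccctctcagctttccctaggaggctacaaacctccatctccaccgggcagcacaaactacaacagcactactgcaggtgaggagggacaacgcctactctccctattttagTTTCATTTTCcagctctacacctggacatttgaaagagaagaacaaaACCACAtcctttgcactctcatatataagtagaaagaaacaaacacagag
Nkg7: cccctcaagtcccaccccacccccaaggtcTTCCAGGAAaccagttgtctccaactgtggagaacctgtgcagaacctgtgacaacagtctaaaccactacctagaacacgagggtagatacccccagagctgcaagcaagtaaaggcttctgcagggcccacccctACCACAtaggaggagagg
Cd8a: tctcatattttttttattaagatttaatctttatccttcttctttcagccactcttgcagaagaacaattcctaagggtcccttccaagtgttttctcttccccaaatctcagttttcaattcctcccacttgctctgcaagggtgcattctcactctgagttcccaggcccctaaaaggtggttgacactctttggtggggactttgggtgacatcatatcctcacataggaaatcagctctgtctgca
The Gzmb stretch is chr14:56262335-56262584 on the minus strand, the Gzma stretch chr13:113100982-113101231 on the minus strand, the Nkg7 stretch chr7:43436888-43437072 on the plus strand and the Cd8a stretch chr6:71373177-71373426 on the plus strand. The window searched was 250 bases. Of the Nkg7 window, 185 bases are printed, since the last 65 lie inside the gene in the GENCODE annotation. The motifs were searched on both strands and were the STAT-binding GAS element TTCNNNGAA, the core of the interferon-stimulated response element (ISRE), the RUNX motif TGTGGT, a T-box motif AGGTGTGA, of the family bound by T-bet and eomesodermin, and the ETS motif CCGGAAGT. No match overlapped a match to another motif in the windows shown. Gzmb held 2 matches to the RUNX motif, beginning 93 and 34 bases before the start. Gzma held 1 RUNX match, on the opposite strand 50 bases before the start, and 1 ISRE core 97 bases before it. Nkg7 held a GAS match 220 bases before the start, a RUNX match at 83 bases and a T-box match at 14 bases, the last in the part not printed. Cd8a held no match, nor did Cd3e and Cd3g, and Cd3d held 1 GAS match at 197 bases. Among 32851 promoter windows of the same length, 14% held the RUNX motif, 7.02% the GAS element, 2.98% the ISRE core, 2.88% the ETS motif and 1.12% the T-box motif. A match describes letters only and is not a binding site. RefSeq windows were matched for 7 of the 10 genes, and Cd4, Cd8b1 and Klrd1 were not among them.

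The libraries held 11522987 to 15501019 estimated counts per mouse, and all 10 genes lay near the limit of detection at that depth. The highest value of any of the 10 in any mouse was 31 counts, for Cd4 at 6 weeks. A floor of 3 counts corresponded to 0.194 to 0.26 CPM (counts relative to a library's own total, before scaling between mice) depending on the library, and this floor and the counting intervals given here cover counting error only. A gene was tested when it reached 0.23 CPM, also before scaling, in at least 6 of the 18 mice, which 15054 genes and 6 of the 10 did: Cd3e, Cd4, Cd8a, Gzma, Gzmb and Nkg7. Cd3d, Cd3g, Cd8b1 and Klrd1 stayed below that filter. Cd4 reached that minimum in all 18 mice, but Gzma and Gzmb did so in none of the controls, Nkg7 in 1 and Cd8a in 2, and each of these 4 would have stayed below the filter without the 6-week mice. The genes that passed were thus partly set by the group where they are high, and no count over them can stand for all 10. All other CPM values given here were scaled between mice by TMM, a trimmed-mean method. The libraries also differed in composition with group: mitochondrially encoded transcripts took 19.8 to 25% of counts in controls and 16.5 to 20% at 6 weeks, and the TMM scaling factors were 0.844 to 0.991 in controls and 1.04 to 1.13 at 6 weeks. The part of these differences in the results was not tested beyond the alternative scalings named with the results.

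**Figure D1:**
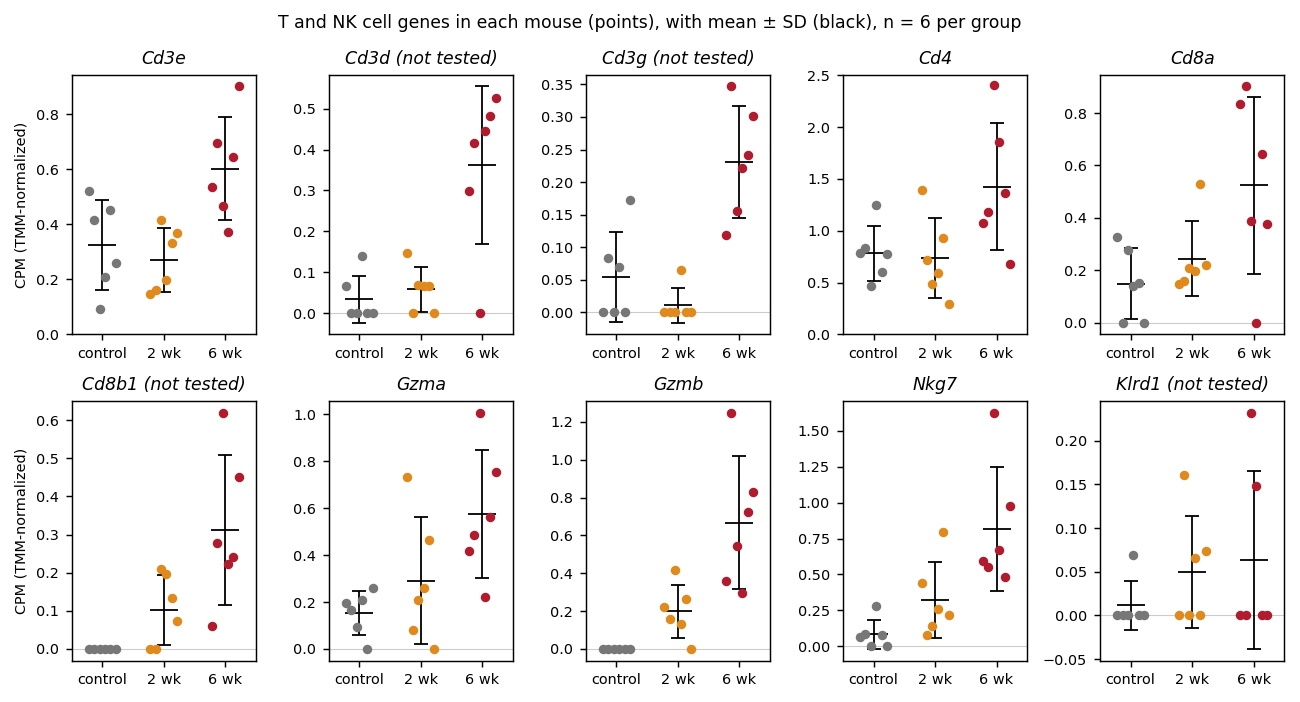
Level of each of the 10 T and NK cell genes (y axis, TMM-normalized CPM, a separate scale per gene) in each mouse of the control, 2-week and 6-week groups (x axis), with the mean ± SD of 6 mice in black. For Gzmb all 6 control mice lie at 0 and the 6 mice at 6 weeks lie between 0.297 and 1.25 CPM, while for Cd4 the 3 groups overlap.

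Granzyme B was undetected in every control heart and detected in every heart at 6 weeks. Gzmb (ENSMUSG00000015437, chr14:56258838-56262260, minus strand, GRCm38) had 0 counts in all 6 control mice, from 0 to 6 counts with a median of 2.5 at 2 weeks, and from 4 to 18 with a median of 8 at 6 weeks. The 6-week and control mice did not overlap, and at 2 weeks 5 of 6 mice held at least 1 count. Mean CPM was 0.199 ± 0.14 (SD, n = 6) at 2 weeks and 0.666 ± 0.351 (SD, n = 6) at 6 weeks. Pooled over mice, Gzmb stood at 5.19 times the floor of 3 counts over the whole control group at 2 weeks and 17 times at 6 weeks. These ratios allow for neither error in the irradiated counts nor spread between mice. By edgeR's quasi-likelihood test the Gzmb difference from control passed at 6 weeks (adjusted P = 0.000294) and narrowly at 2 weeks (adjusted P = 0.0498). The fitted log2 fold changes, 6.19 (SE 0.962) at 6 weeks and 4.52 (SE 1.25) at 2 weeks, depend on the prior count of the fit because the controls are at 0. The 2-week call was lost in the fit without a filter (adjusted P = 0.0748) and when any one of 14 mice was left out (controls 1 to 6, 2-week mice 1 to 5 and 6-week mice 3, 5 and 6), with adjusted P between 0.0574 without mouse 6 of the 6-week group and 0.0895 without mouse 5 of the 2-week group. Leaving out control mouse 4 brought Nkg7 past the threshold in its place (adjusted P = 0.0496). Of the 31-base words of the Gzmb transcript, 1.35% also occur in Gzmc, a neighboring granzyme gene, and none in another gene.

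Nkg7 (ENSMUSG00000004612, chr7:43437073-43438249, plus strand) followed the same order of groups. Control mice held 0 to 4 counts with a median of 1, mice at 2 weeks 1 to 12 with a median of 3.5, and mice at 6 weeks 6 to 21 with a median of 9.5. All mice at 6 weeks were above all controls, while the 2-week group overlapped both. Mean CPM was 0.0836 ± 0.102 in the control group, 0.323 ± 0.262 in the 2-week group and 0.818 ± 0.432 in the 6-week group (SD, n = 6 each). The log2 fold change against control was 3.04 (SE 0.574, adjusted P = 0.000373, edgeR) at 6 weeks and 1.77 (SE 0.692, adjusted P = 0.138) at 2 weeks. Nkg7 had the highest mean level per transcript length of the 10 genes at 6 weeks, 1.69 ± 0.955 TPM (SD, n = 6).

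Granzyme A (Gzma, ENSMUSG00000023132, chr13:113093825-113100981, minus strand) was detected in 5 of 6 control hearts. It held 0 to 3 counts with a median of 2.5 in controls, 0 to 10 with a median of 3.5 at 2 weeks, and 3 to 13 with a median of 7 at 6 weeks. The 6-week group touched the control group at 3 counts, and the 2-week group spanned both. Gzma was higher in the 6-week group than in controls (log2 fold change 1.81, SE 0.543, adjusted P = 0.0174, edgeR) and did not pass at 2 weeks (0.89, SE 0.621, adjusted P = 0.442). Under limma voom the 6-week difference was just outside the threshold (adjusted P = 0.0501). Klrd1 (ENSMUSG00000030165, chr6:129591782-129598775, plus strand) was barely detected, with 1 count over all controls, 4 over the 2-week mice and 5 over the 6-week mice, the last from 2 mice. Its pooled ratio of 6 weeks to control was 4.65 with a 95% counting interval of 0.52 to 220, so that no difference in Klrd1 was detectable at this depth.

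The CD8 genes were low in every heart. Cd8a (ENSMUSG00000053977, chr6:71373427-71379173, plus strand) ranged from 0 to 5 counts in controls with a median of 2, from 2 to 8 with a median of 3 at 2 weeks, and from 0 to 14 with a median of 6.5 at 6 weeks. The groups overlapped, since mouse 4 at 6 weeks had no Cd8a count while mice 1 and 2 had 14 and 13. Cd8a was higher at 6 weeks than in controls (log2 fold change 1.74, SE 0.585, adjusted P = 0.0323, edgeR), and its difference at 2 weeks did not pass (0.65, SE 0.687, adjusted P = 0.638). The 6-week call was lost without any one of 7 mice (controls 2, 4, 5 and 6 and 6-week mice 1, 2 and 5), with adjusted P of 0.052 to 0.0862, and under limma voom (adjusted P = 0.19), voom with sample quality weights (adjusted P = 0.137) and a fit of the 2 groups alone (adjusted P = 0.0617).

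Cd8b1 (ENSMUSG00000053044, chr6:71322788-71337494, plus strand), the partner chain, was at 0 in all controls, at 0 to 3 counts at 2 weeks and at 1 to 8 counts at 6 weeks. Every 6-week mouse therefore held at least 1 count and no control did. Pooled over mice its level was 2.75 times the control floor of 3 counts at 2 weeks, from 9 counts, and 7.74 times at 6 weeks, from 25. These ratios allow for neither error in the irradiated counts nor spread between mice. Cd8b1 was below the filter. In a fit without a filter, which took in 21258 genes and called 8.82% of them higher at 6 weeks, its adjusted P was 0.00266 at 6 weeks and 0.157 at 2 weeks, where that fit called 1.72% of genes higher. Of its 31-base words, 8.4% are shared with other genes, 719 in number, and the effect of this sharing on its counts was not tested.

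Cd4 (ENSMUSG00000023274, chr6:124864692-124888221, minus strand) was the best covered of the 10. Its counts ran from 5 to 18 with a median of 9.5 in controls, from 4 to 19 with a median of 9 at 2 weeks, and from 9 to 31 with a median of 17.5 at 6 weeks. Both irradiated groups overlapped the controls. The log2 fold change was -0.12 at 2 weeks (SE 0.374, 95% interval -0.9 to 0.67, adjusted P = 0.895) and 0.81 at 6 weeks (SE 0.332, 95% interval 0.12 to 1.51, adjusted P = 0.0821, edgeR), neither past the threshold. Without control mouse 4 (adjusted P = 0.0444) or 6-week mouse 6 (adjusted P = 0.0409) the 6-week difference passed. Macrophages and other myeloid cells can also carry Cd4 transcripts, so that the gene is less particular to T cells than the CD3 genes.

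Pooled over each group, the 2 CD8 genes together had 12 counts against 62 of Cd4 in the control group, 30 against 62 at 2 weeks and 70 against 117 at 6 weeks. The ratio of CD8 to Cd4 counts was therefore 0.194, 0.484 and 0.598. In single mice it ran from 0 to 0.6 in controls, from 0.105 to 1 at 2 weeks and from 0.12 to 1.22 at 6 weeks, so that the groups overlapped, and the difference between groups was not tested. These are ratios of counts, which also depend on transcript length.

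The 3 CD3 genes lie together on chromosome 9 in the order Cd3g (ENSMUSG00000002033, chr9:44969572-44980431, minus strand), Cd3d (ENSMUSG00000032094, chr9:44981786-44987339, plus strand) and Cd3e (ENSMUSG00000032093, chr9:44998740-45009627, minus strand). Cd3g and Cd3d are read away from each other from start sites 1355 bases apart, and that of Cd3e lies 27841 bases from that of Cd3d. Exons of Cd3e overlap the antisense gene Gm48719, which was not analysed here.

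Cd3e ran from 1 to 8 counts with a median of 4 in controls, from 2 to 6 with a median of 4 at 2 weeks, and from 5 to 12 with a median of 8.5 at 6 weeks. The 6-week mice overlapped both other groups. Against control the log2 fold change was -0.29 at 2 weeks (SE 0.384, 95% interval -1.09 to 0.51, adjusted P = 0.721) and 0.82 at 6 weeks (SE 0.326, 95% interval 0.14 to 1.51, adjusted P = 0.0717, edgeR). The 6-week difference passed without control mouse 1 (adjusted P = 0.0387) or without 6-week mouse 4 (adjusted P = 0.0451).

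Cd3d and Cd3g were below the filter. Cd3d totaled 3 counts in the control group, 5 in the 2-week group and 30 in the 6-week group, where 5 of 6 mice held 5 to 7 counts and mouse 3 held none. Its pooled ratio of 6 weeks to control was 9.29 (95% counting interval 2.89 to 47.6). Cd3g totaled 4 counts in the control group, 1 in the 2-week group and 19 in the 6-week group, with 2 to 5 counts in every 6-week mouse, and its ratio of 6 weeks to control was 4.41 (95% counting interval 1.47 to 17.8). Each CD3 gene was thus at its highest at 6 weeks, and none exceeded its control level at 2 weeks beyond counting error. In the fit without a filter Cd3d was called higher at 6 weeks than in controls (log2 fold change 2.95, SE 0.706, adjusted P = 0.00302) and Cd3g was not (1.96, SE 0.696, adjusted P = 0.0535).

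In counts over all tested genes, 1 of the 6 tested T and NK cell genes (Gzmb) was called higher at 2 weeks, where 3.09% of all tested genes were called higher. At 6 weeks 4 of the 6 (Cd8a, Gzma, Gzmb and Nkg7) were called higher and none lower, where 13.5% of all tested genes were called higher. For 2 of the 6, Gzmb and Nkg7, the 6-week mice all lay above the controls, which held for 5.8% of all tested genes. The median log2 fold change of the 6 was 0.77 at 2 weeks and 1.77 at 6 weeks, beside medians of all tested genes of -0.00153 and -0.019. Since the 4 genes called at 6 weeks passed the filter only with the 6-week mice, these counts and medians describe the genes and do not test them as a set. Scaling by library size alone moved the median of all genes by 0.148 at 2 weeks and 0.243 at 6 weeks and changed the balance of calls at 6 weeks from 2029 higher and 1731 lower to 5494 higher and 326 lower. At 2 weeks the balance went from 465 higher and 290 lower to 1707 and 82. Under that scaling all 6 tested genes were called higher at 6 weeks.

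**Figure D2:**
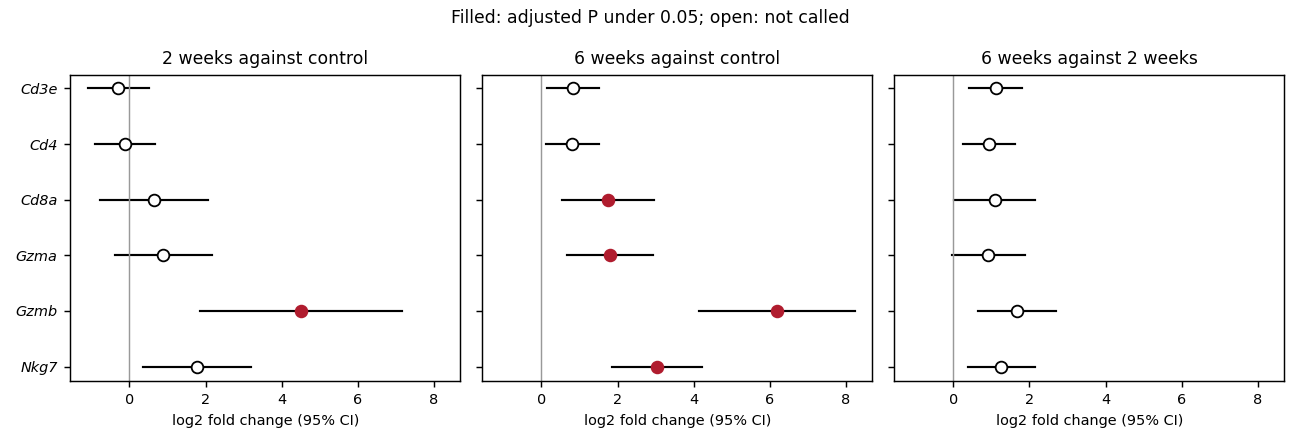
Fitted log2 fold change with its 95% interval (x axis) for the 6 T and NK cell genes that passed the filter (y axis), in the 3 comparisons. Filled points passed an adjusted P of 0.05: Gzmb at 2 weeks and Cd8a, Gzma, Gzmb and Nkg7 at 6 weeks against control, and none between 6 and 2 weeks. The Gzmb values against control depend on the prior count, since its controls are at 0.

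Between the irradiated groups all 6 tested genes had fitted values above 0 at 6 weeks relative to 2 weeks, and none was called. With edgeR 0 of the 6 passed, where 3.31% of all tested genes were called higher, and 5 of the 6 had an unadjusted P under 0.05. The log2 fold changes ran from 0.92 for Gzma (SE 0.461, adjusted P = 0.259) to 1.67 for Gzmb (SE 0.485, adjusted P = 0.0587), with Cd3e at 1.12 (SE 0.333, adjusted P = 0.0563) and Nkg7 at 1.26 (SE 0.424, adjusted P = 0.0782). DESeq2 also called 0, limma voom called 1 (Gzmb) and voom with sample quality weights called 2 (Gzmb and Nkg7). Leaving out a single mouse brought Cd3e past the threshold without control 3 (adjusted P = 0.0448) or 6-week mouse 4 (adjusted P = 0.0359), Gzmb without 2-week mouse 3 (adjusted P = 0.0473) or 6-week mouse 4 (adjusted P = 0.0351), and Nkg7 without 2-week mouse 5 (adjusted P = 0.0275). In the fit without a filter, where 1.69% of genes were called higher, Cd3d (log2 fold change 2.43, SE 0.635, adjusted P = 0.0307) and Cd3g (3.5, SE 0.853, adjusted P = 0.0263) were the 2 of the 10 called. The comparisons against control share the same 6 control mice, and all values given side by side for 2 and 6 weeks rest on them.

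Levels per transcript length placed the granule genes first at 6 weeks. There the order by mean TPM was Nkg7 (1.69), Gzma (1.27), Gzmb (0.732), Cd4 (0.659), Cd3e (0.609), Cd3d (0.416), Cd3g (0.353), Cd8b1 (0.306), Cd8a (0.247) and Klrd1 (0.202). At 2 weeks Nkg7 (0.606 TPM) and Gzma (0.588) led, and Gzmb (0.197) stood below Cd4 (0.299) and Cd3e (0.246). In controls Cd4 (0.292 TPM), Cd3e (0.251) and Gzma (0.25) led, Nkg7 stood at 0.132 TPM and the others were at 0.0593 TPM or less. In each group every gene's mean lay within 1 SD of that of its neighbor in the order, taking the larger of the 2 SDs, so that neighbors cannot be ranked. TPM is relative to each library's own total and was not scaled between mice.

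The 10 genes were also set against Ptprc, which encodes CD45 and is carried by all leukocytes. Ptprc ran from 44 to 194 counts in the control group, 130 to 338 in the 2-week group and 321 to 565 in the 6-week group, with log2 fold changes against control of 1.01 (SE 0.243, adjusted P = 0.0225) and 1.97 (SE 0.24, adjusted P = 1.36e-05, edgeR). The summed counts of the 10 genes ran from 10 to 34 (median 18), from 17 to 53 (median 31) and from 60 to 96 (median 74.5). For both measures all 6-week mice were above all controls. Per 100 Ptprc counts the 10 genes had 17.5 to 25 counts in the control group (median 22.3), 7.83 to 27.8 in the 2-week group (median 14.9) and 13.6 to 27.4 in the 6-week group (median 18.2). The ranges of that ratio overlapped in all 3 groups, and those of the summed counts did not overlap between 6 weeks and either other group. Within the sum the makeup differed: the 3 granule genes Gzma, Gzmb and Nkg7 gave 19 of 127 counts in the control group, 70 of 195 in the 2-week group and 169 of 460 in the 6-week group, and the 3 CD3 genes gave 33, 29 and 99.

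**Figure D3:**
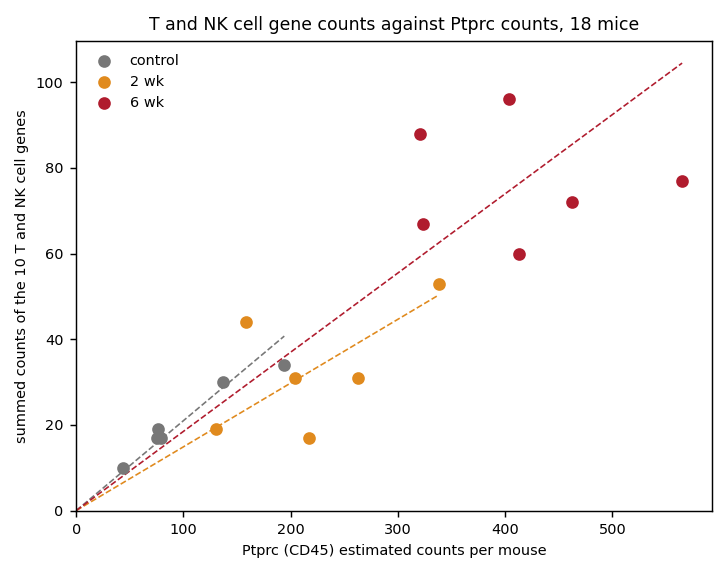
Summed estimated counts of the 10 T and NK cell genes (y axis) against Ptprc counts (x axis), 1 point per mouse and a dashed line per group at that group's pooled ratio. The 6-week mice have both the highest Ptprc counts (321 to 565, with a single 2-week mouse at 338 inside that range) and the highest summed counts (60 to 96), and the pooled ratios are 21, 14.9 and 18.5 per 100 Ptprc counts for the control, 2-week and 6-week groups.

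Among other genes of the T cell receptor complex and its signaling, 4 of the 5 that could be tested were higher at 6 weeks and none at 2 weeks, with 1 higher at 6 weeks than at 2 weeks, where 13.5%, 3.09% and 3.31% of all tested genes were called higher. These shares are the background for the counts of each list that follows. The list held 18 genes, of which 17 were analysed here, and the median log2 fold change of the 5 was 0.72 at 2 weeks and 1.69 at 6 weeks. Of the 4, 1 (Lck) passed the filter only with the 6-week mice. The calls include Lck, the kinase that sits on CD4 and CD8 (log2 fold change 2.33, SE 0.461, adjusted P = 0.000639), and the adaptor genes Fyb (1.69, SE 0.254, adjusted P = 0.000111) and Lcp2 (1.45, SE 0.281, adjusted P = 0.000951). Fyb and Lcp2 are also used by myeloid cells. The gene not called, Cd247, which encodes the CD3 zeta chain, had a log2 fold change of -0.62 at 6 weeks (adjusted P = 0.179), with 87, 53 and 61 counts over the control, 2-week and 6-week mice. The constant regions of the receptor itself were hardly detected: Trac had 7, 4 and 10 counts over the 3 groups, Trbc1 2, 3 and 8, and Trbc2 5, 2 and 9.

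Among 19 genes of the T cell surface and of T cell transcription factors 16 were tested, and 7 were higher and none lower at 6 weeks. Of the 7, Tbx21, Cd6 and Il7r passed the filter only with the 6-week mice. Ms4a4b, a T cell surface gene, had 0.183 ± 0.146 CPM in the control group, 0.546 ± 0.0756 in the 2-week group and 1.53 ± 0.51 in the 6-week group (SD, n = 6 each), a log2 fold change of 2.92 at 6 weeks (SE 0.36, adjusted P = 1.12e-05). Its lowest irradiated mouse, 0.44 CPM, was above its highest control, 0.347 CPM. Tbx21, which encodes the type 1 effector factor T-bet, rose by 2.51 (SE 0.598, adjusted P = 0.00268) and the surface receptor gene Cd6 by 2.44 (SE 0.641, adjusted P = 0.00563) on the log2 scale. Il7r, the receptor for the survival cytokine interleukin-7, had its lowest mean at 2 weeks. Il7r stood at 0.319 ± 0.0996 CPM in the control group, 0.151 ± 0.121 in the 2-week group and 0.733 ± 0.399 in the 6-week group (SD, n = 6 each). Its log2 fold change was 2.17 between 6 and 2 weeks (SE 0.438, adjusted P = 0.00917) and 1.14 at 6 weeks against control (SE 0.382, adjusted P = 0.0324), with -1.03 at 2 weeks (adjusted P = 0.281). The median log2 fold change of the 16 was 0.24 at 2 weeks and 1 at 6 weeks.

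Of 9 regulatory and inhibitory T cell genes 7 were tested, of which 2 were higher and 1 lower at 6 weeks and none called at 2 weeks, with medians of 0.14 at 2 weeks and 0 at 6 weeks (log2 fold change). The higher ones encode inhibitory receptors, Havcr2 (TIM-3, log2 fold change 2.19, SE 0.444, adjusted P = 0.00126) and Lag3 (1.56, SE 0.362, adjusted P = 0.00377), and Havcr2 is also carried by myeloid cells. Ikzf2, which encodes the transcription factor Helios, fell by 0.35 on the log2 scale (SE 0.0877, adjusted P = 0.00612), a call that was lost with scaling by library size alone and with TPM. Foxp3, the factor of regulatory T cells, had 40, 60 and 60 counts over the 3 groups.

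Of 13 further granule and effector genes 6 were tested, and 3 were called higher at 6 weeks and none at 2 weeks, with medians of 0.3 at 2 weeks and 0.76 at 6 weeks (log2 fold change), and 1 of the 3 passed the filter only with the 6-week mice (Ctsw). Ccl5, Ctsw and Srgn were higher at 6 weeks both against control and against 2 weeks. Ccl5, a chemokine stored and released by effector T and NK cells, went from 0.482 ± 0.311 CPM in controls through 0.926 ± 0.544 at 2 weeks to 3.77 ± 1.06 at 6 weeks (SD, n = 6 each), a log2 fold change of 2.92 against control (SE 0.362, adjusted P = 1.82e-05) and 2 against 2 weeks (SE 0.313, adjusted P = 0.00272). Ctsw, a protease gene of cytotoxic cells, had a log2 fold change of 2.87 against control (SE 0.535, adjusted P = 0.000286). Srgn, the granule proteoglycan found in many blood cells, changed by 0.43 (SE 0.118, adjusted P = 0.0126). Gzmm, which encodes granzyme M, had 288, 268 and 294 counts over the groups and a log2 fold change of -0.09 at 6 weeks (SE 0.218, 95% interval -0.55 to 0.36, adjusted P = 0.802). Prf1, which encodes perforin, had 27, 40 and 63 counts over the groups, while Ifng, the interferon gamma gene, had 2, 0 and 2 and Gzmk 0, 1 and 5.

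NK cell genes were mostly too low to test, 10 of 15 staying below the filter. All 5 tested were higher at 6 weeks and none was called at 2 weeks, with median log2 fold changes of 1.73 and 0.69. Klrk1 was tested only because of the 6-week mice, so that the count of 5 was partly set by the filter. Il2rb, a receptor chain for interleukin-2 and interleukin-15, had 0.378 ± 0.257 CPM in the control group, 0.843 ± 0.226 in the 2-week group and 1.99 ± 0.454 in the 6-week group (SD, n = 6 each), and its log2 fold change at 6 weeks was 2.32 (SE 0.329, adjusted P = 6.21e-05). Klrk1, the activating receptor NKG2D, rose by 2.43 (SE 0.663, adjusted P = 0.00705) and Itga2, an integrin of NK cells that other cells share, by 1.73 (SE 0.278, adjusted P = 0.000202) on the log2 scale. Fcer1g, an adaptor of NK cells and myeloid cells alike, was higher (log2 fold change 0.95, SE 0.212, adjusted P = 0.00278). Among those below the filter, the NK receptor gene Ncr1 had 0, 2 and 13 counts over the groups, the transcription factor gene Eomes 2, 9 and 21, and Klrb1c 5, 14 and 27.

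**Figure D4:**
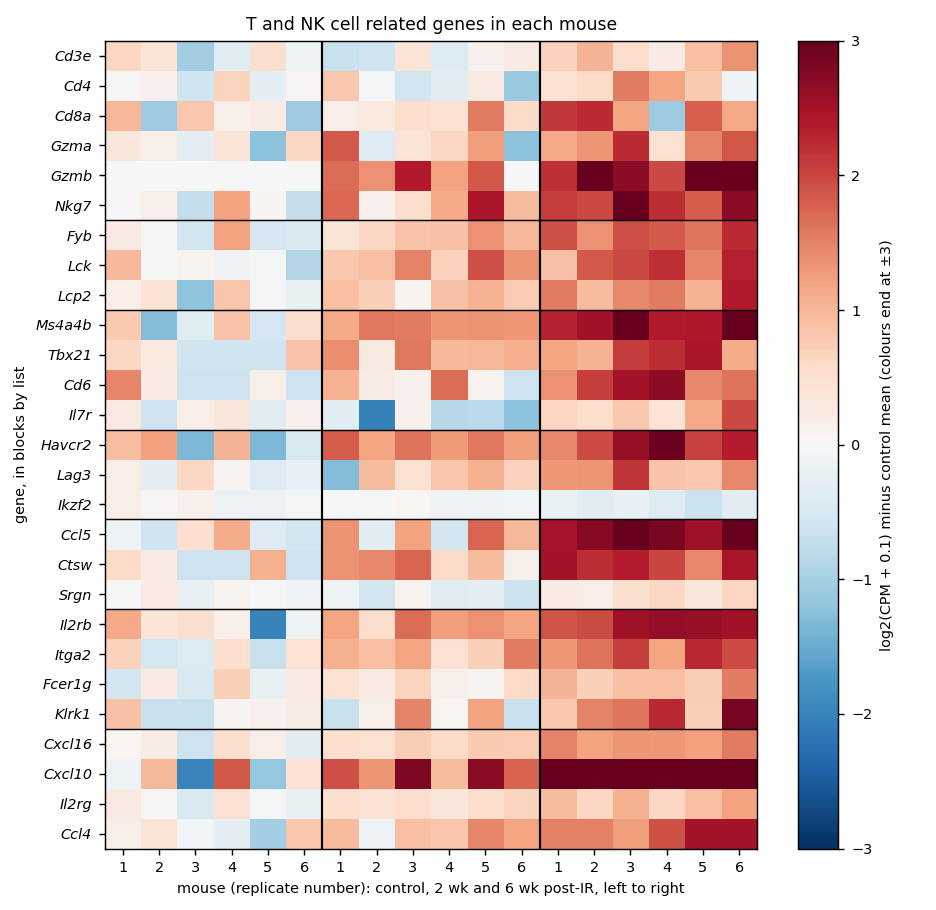
Level of the 6 tested T and NK cell genes and of the named genes of 6 related lists (rows, in blocks) in each of 18 mice (columns), as log2(CPM + 0.1) minus the control mean of the gene. Most rows are above the control mean in the 6-week mice, such as Ccl5 and Cxcl10, while Ikzf2 is below it.

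Chemokines and cytokines that draw T and NK cells or keep them alive were the only one of the 6 T and NK cell lists with calls at 2 weeks. Of 12 listed 11 were tested, with 2 higher at 2 weeks and 7 at 6 weeks and median log2 fold changes of 0.39 and 1.31. Cxcl16, the ligand of CXCR6, was at 11.2 ± 2.94 CPM in the control group, 17 ± 1.67 in the 2-week group and 28 ± 2.82 in the 6-week group (SD, n = 6 each), with log2 fold changes of 0.59 (SE 0.137, adjusted P = 0.0187) and 1.31 (SE 0.135, adjusted P = 3.04e-06). Il2rg, the common cytokine receptor chain, had log2 fold changes of 0.47 (SE 0.133, adjusted P = 0.0474) and 0.88 (SE 0.132, adjusted P = 0.000107) at the 2 times. Cxcl10, an interferon-induced ligand of CXCR3, went from 0.459 ± 0.486 CPM in controls through 1.55 ± 0.822 to 6.84 ± 2.56 (SD, n = 6 each), a log2 fold change of 3.81 at 6 weeks (SE 0.455, adjusted P = 1.24e-05), and the chemokine gene Ccl4, which passed the filter only with the 6-week mice, had 2.45 (SE 0.439, adjusted P = 0.000269). On the side of the MHC molecules that T cell receptors and co-receptors bind, 7 of 8 genes were tested, 2 higher at 2 weeks and 6 at 6 weeks (median log2 fold changes 1.31 and 1.25), such as the class II chaperone gene Cd74 (log2 fold change 2.61, SE 0.327, adjusted P = 1.88e-05) and the class II gene H2-Ab1 (3.06, SE 0.703, adjusted P = 0.00353). The tested gene not called at 6 weeks was the class I gene H2-K1. Its log2 fold changes were 1.71 at 2 weeks, -0.84 at 6 weeks and -2.55 between 6 and 2 weeks, none called. The class II gene H2-Aa, below the filter, had 2, 0 and 0 counts over the groups, beside 121, 325 and 1053 of H2-Ab1. The cause of these differences between MHC genes was not tested.

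Markers of leukocytes in general, macrophages and B cells were mostly called higher at 6 weeks, and those of neutrophils, mast cells and red cells mostly were not. All 6 genes of leukocytes in general were higher at 6 weeks and 3 at 2 weeks, among them Coro1a (log2 fold change at 6 weeks 1.8, adjusted P = 1.81e-06) and Cd52 (2.42, adjusted P = 1.11e-05), and their summed level was 19.1 to 74.1 CPM in controls and 90.6 to 153 CPM at 6 weeks. Of 8 macrophage genes 7 were higher at 6 weeks and 1 at 2 weeks, with C1qa at 1.24 (adjusted P = 9.92e-06) and C1qb at 1.29 (adjusted P = 7.79e-05) at 6 weeks. Their summed level was 112 to 273 CPM in the control group, 192 to 249 in the 2-week group and 264 to 369 in the 6-week group. Of the 7 dendritic cell genes 3 were higher at 6 weeks, such as Itgax (3.92, adjusted P = 0.000162) and Flt3 (2.27, adjusted P = 0.00684), with summed levels of 34.5 to 43 CPM in controls and 40.8 to 54.6 CPM at 6 weeks. Of 4 tested B cell genes 3 were higher, such as Cd79b (1.79, adjusted P = 0.00494) and Ighm (1.03, adjusted P = 0.0226), and the summed level of the 6 B cell genes was 3.25 to 9.64 CPM in controls and 7.36 to 14.6 CPM at 6 weeks. Of the 3 tested genes of neutrophils and mast cells 1 was higher, Kit (0.57, adjusted P = 0.0104), while S100a9 (-0.91, adjusted P = 0.391) and Mcpt4 (-0.32, adjusted P = 0.718) were not called. Summed levels were 8.24 to 13 CPM in controls and 11.4 to 16.2 CPM at 6 weeks. Kit gave most of these sums, such as 189 of 199 counts in control mouse 1 and 265 of 271 in 6-week mouse 1, so that they mainly follow that gene.

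Markers of the thymus, which lies close to the heart and is rich in T cells, were at or near 0 for the genes that define developing thymocytes. Of the 8 listed 2 passed the filter, Cd1d1 and Arpp21, and neither was called. Ptcra had 0 counts in all mice, Dntt 1 count in all and Rag2 1, while Rag1 had 0, 7 and 2 counts over the 3 groups. The summed level of the 8 was 2.42 to 3.83 CPM in controls and 1.93 to 2.78 CPM at 6 weeks. The summed level of 6 red cell and platelet genes varied widely, from 51.5 to 1120 CPM in controls and from 52.9 to 118 CPM at 6 weeks, and 1, the hemoglobin gene Hba-a1, was called lower (-2.2, adjusted P = 0.0313), a call that was lost with TPM, with limma voom, with the replicate block, and when control mouse 5 or 6 or 6-week mouse 1, 2, 3, 5 or 6 was left out. Of 6 cardiac myocyte genes all were called lower at 6 weeks, where 11.5% of all tested genes were, such as Ryr2 (-0.6, adjusted P = 0.000168) and Actc1 (-0.61, adjusted P = 0.000292). Only 2 of these 6 were called lower with scaling by library size alone and 1 with TPM. No atrial gene was called, and their summed level was 233 to 1580 CPM in controls and 73.1 to 696 CPM at 6 weeks. The adjusted P values of these lists are from edgeR, and the part of other cell types in the levels of genes they share with T and NK cells was not tested.

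**Figure D5:**
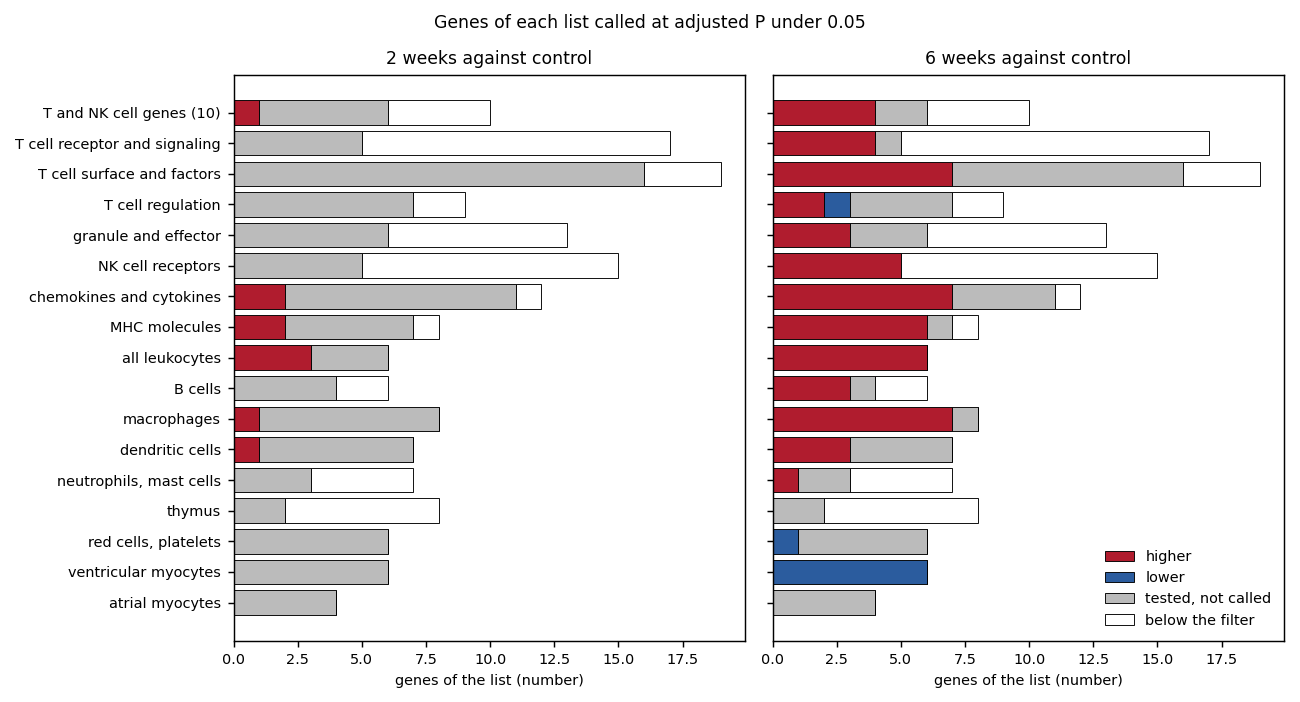
Number of genes (x axis) of each list (y axis) that were called higher (red), called lower (blue), tested and not called (gray) or below the filter (white), at 2 weeks (left) and 6 weeks (right) against control. Of the T and NK cell genes 1 was called at 2 weeks and 4 at 6 weeks, and of the 6 cardiac myocyte genes all 6 were lower at 6 weeks.

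Mice of one group differed in which of the 10 genes had counts, and these differences were not compared with counting error. Over the 18 mice the log2 CPM values of the 3 granule genes were correlated at 0.73 to 0.75 (Pearson's r, pairs of Gzma, Gzmb and Nkg7), and Cd4 and Cd8a at 0.09. With each group's mean removed, Gzma stayed correlated with Cd4 (0.56), Nkg7 (0.54) and Gzmb (0.51), Nkg7 with Cd4 (0.53), while Gzmb and Nkg7 went from 0.75 to 0.04 and Cd3e and Cd4 stood at -0.39. These values describe 18 mice with counts of a few per gene, where mice share group, library depth and scaling, and no test was made of them. The largest summed counts at 6 weeks were in mouse 3 (96), which held 31 of Cd4 and 21 of Nkg7 but no Cd3d, and the smallest in mouse 4 (60), which held 25 of Cd4 and no Cd8a.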

How the data were processed

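RNA-seq was made by the authors from heart tissue of 18 CD-1 mice, 6 per group, with the KAPA RNA HyperPrep kit. Reads were aligned by the authors to GRCm38 (STAR), transcript abundance was estimated with Salmon 1.0, and tximport gave the values per gene. The submitters' processing notes also name CASAVA 1.8. The deposited expected counts are estimated counts per gene, partly not whole, with no scaling of one mouse to another. The authors also deposited TPM from that quantification, which corrects for transcript length and for the library's total, and it served here for levels between genes and for alternatives. No column of another sample was found (0).

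After rounding, counts were fitted with edgeR 4.0.16 in R 4.3.3. Genes reaching the study's minimum of 0.23 CPM in 6 or more mice were tested, TMM factors scaled the libraries, and a quasi-likelihood model of the 3 groups was fitted to all 15054 genes. Its two-sided F tests compared the groups in pairs, without a replicate block, and P values were adjusted over all tested genes in each comparison by the Benjamini-Hochberg method. The threshold of a call was an adjusted P of 0.05. SE values are the size of the log2 fold change over the square root of F. Pooled count ratios carry exact 95% binomial intervals of counting error. The fit was tested on simulated data. Alternatives were DESeq2 1.42.0, limma 3.58.1 (voom, and log2 TPM with a pseudocount of 1 or 0.1), other scalings and filters, a replicate block, a Y-linked covariate and leaving out each mouse.

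Text names all 10 genes, at most 4 called genes per T and NK cell list and at most 2 per other list, by smallest adjusted P. A few genes below the filter or not called were named outside this rule, after their values were seen, and 1 called gene of the T cell receptor list is not reported here. The genes and lists were chosen with earlier results of these data known. Symbols, coordinates and shared 31-base words came from GENCODE on GRCm38, and promoter windows from RefSeq. Same-numbered mice did not deviate together, so numbers were not taken as pairs.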

Additional observations from a re-analysis of the deposited data

Results flagged for a closer look

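In 4 of 39 groups of 6 mice of the genes described, a single mouse lay far from the other mice of its group (gap over range above Dixon's critical 0.625). Chance gives about 1 in 20 for continuous values, a rate that does not hold for counts this low: for Cd3g and Klrd1 a single count beside zeros gives a ratio of 1 by construction. These were Cd3g in 2-week mouse 4 (0.0654 CPM, 1 count, the others at 0), Klrd1 in control mouse 4 (0.0694 CPM, 1 count, the others at 0), Cd8a in 2-week mouse 5 (0.53 CPM) and Nkg7 in control mouse 4 (0.278 CPM). Without control mouse 4 the Nkg7 difference at 2 weeks passed the threshold (adjusted P = 0.0496).

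The effects at the 2 times differed for the named genes that were called between 6 and 2 weeks with edgeR, a direct test of that difference. Among T and NK cell related genes the log2 fold changes at 6 weeks against 2 weeks were 2.17 for Il7r, 2.0 for Ccl5, 1.46 for Ms4a4b, 1.36 for Ctsw, 1.2 for Il2rb, 0.96 for Fyb and 0.72 for Srgn. Ctsw was close to the threshold (adjusted P = 0.0494). Among chemokines and MHC genes they were 2.12 for Cxcl10, 1.3 for Cd74 and 0.72 for Cxcl16. Among markers of other cells they were 1.68 for Itgax, 1.1 for Cd52, 0.97 for Ptprc, 0.8 for C1qb, 0.79 for Coro1a, 0.66 for C1qa and -0.4 for Actc1. None of the 6 tested T and NK cell genes of the main set was among them with edgeR, although 5 of the 6 had an unadjusted P under 0.05 and limma voom called 1.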

How the results depend on the processing

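Of the 6 tested T and NK cell genes, 4 were called at 6 weeks, and limma voom called 2 (Gzmb and Nkg7). Over the alternatives other than leaving out a mouse, 2 to 6 of the 10 genes were called at 6 weeks. Cd3e and Cd4, not called in the main fit, each passed in 3 of those alternatives. The single call at 2 weeks became 0 with voom and sample quality weights, with no filter, with log2(TPM + 1), with only the 2 groups fitted and with the Y-linked covariate, and 2 with log2(TPM + 0.1). Replicate numbers did not pair the mice (same-number r from -0.0828 to 0.106, 3 of 18 mice correlating best with their own number), and a replicate block gave 0 calls at 2 weeks, 4 at 6 weeks and 0 between the times, with 586, 3549 and 542 calls over all genes. Between 6 and 2 weeks the 0 calls became 2 with voom and quality weights, 1 with voom, 3 with library size alone, 2 without a filter (Cd3d and Cd3g, absent from the other fits), 4 with log2(TPM + 1) and 2 with log2(TPM + 0.1). Leaving out 1 mouse gave 0 to 1 calls at 2 weeks, 3 to 5 at 6 weeks and 0 to 2 between the times. Over all genes the calls were 755, 3760 and 802, and leaving out 1 mouse gave 451 to 879, 3083 to 3932 and 330 to 994. Requiring a log2 fold change above 1 left 136, 896 and 172. At 2 weeks DESeq2 gave 1229, library size alone 1789, log2(TPM + 1) 2813 and log2(TPM + 0.1) 3026. At 6 weeks library size alone gave 5820, log2(TPM + 1) 7472 and log2(TPM + 0.1) 7463. Signs turned at 2 weeks for Cd3e with log2(TPM + 0.1) (0.03) and for Cd4 with library size alone (0.03), log2(TPM + 1) (0), without control mouse 4 (0.07) and without 2-week mouse 6 (0.04), Cd4 running from -0.39 to 0.07 when 1 mouse was left out. The causes of these changes were not tested. The Gzma call at 6 weeks was lost under voom (adjusted P = 0.0501). DESeq2 gave no adjusted P for 5 of the genes at 2 weeks, and the filter as worded in the study kept only Cd4 of the 10. Counts of a few per mouse limit every value here.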

Other observations

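The genes most like the tested T and NK cell genes were sought over all tested genes, as those whose log2 CPM had the highest Pearson's r with the mean standardized log2 CPM of the 6 genes over 18 mice. They were Tm6sf1 (0.944), Ass1 (0.935), Ptchd1 (0.931), Kctd10 (0.922), Lfng (0.919), Gng11 (0.91), Slc30a4 (0.91), Acsl5 (0.906), Upp1 (0.904) and Ptma (0.903), and none was on a T or NK cell list. Mean levels in controls, at 2 weeks and at 6 weeks were 9.21, 12 and 20.3 CPM for Tm6sf1, 5, 6.49 and 11.2 CPM for Ass1, and 0.146, 0.433 and 2.45 CPM for Ptchd1. With the mean of each group removed the leading genes were Ldlrad3 (0.829), Wdr47 (0.82), Ccnc (0.801), Tm6sf1 (0.765) and Ass1 (0.762), followed by Zfp385b, Phxr4, Crispld1, Adamts8 and A530032D15Rik at 0.749 to 0.76. The 18 mice share group, depth and scaling, the highest of many correlations is high by selection, and no test was made.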
